A study of Mus musculus with 42 samples.

Results

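Domains of trimethylated lysine 27 of histone H3 (H3K27me3) that held no trimethylated lysine 4 (H3K4me3) are described here in bone marrow-derived mesenchymal stromal cells (MSCs), cultured cells that can become fat, bone or cartilage. Islands, meaning stretches of the genome where a caller found more ChIP reads than input reads predict, were merged over the 8 H3K27me3 libraries wherever they overlapped or touched. The domains were chosen by these measured islands alone: a merged autosomal region was kept when at least 6 of the 8 libraries had an island in it and no island of the 8 H3K4me3 libraries touched it. Of 67899 merged regions, 1951 met the rule. They spanned 37.7 Mb, with a median length of 16.6 kb and a range of 2.4 to 204.8 kb. These are lengths after merging, and in single libraries islands covered 26.0% to 52.4% of that span. A start in a domain therefore need not lie under an island in every library.

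The MSCs were a purchased stock isolated from long bone marrow of C57BL/6 mice and were used at passage 9 to 10. They were exposed for 48 h to 0.1% DMSO (the solvent), 50 nM tributyltin (TBT, an organotin that binds the retinoid X receptor RXR and PPARγ), 100 nM AGN194204 (an RXR agonist) or 100 nM rosiglitazone (ROSI, a PPARγ agonist). RNA was sequenced in 6 libraries per treatment, and each histone mark in 4 DMSO and 4 TBT libraries with 1 input per treatment, so AGN194204 and ROSI have no ChIP data here. The labels do not say whether replicates were separate cultures, so the p-values rest on a spread between samples that could be technical only.

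H3K27me3 is written by Polycomb repressive complex 2 (PRC2), whose enzyme is Ezh2 or Ezh1, and is read by the CBX proteins of PRC1. The mark is found over genes that a cell type keeps silent. H3K4me3 sits at promoters that are active or poised, above all at CpG islands, and promoters that carry both marks are known as bivalent. The RNA and the promoter sequences below did not enter the choice of the domains directly. They are not independent of it, because leaving out every region with H3K4me3 also leaves out many active and CG-rich promoters.

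The labelled cell type was checked against marker lists in the 6 DMSO libraries. Of 14 stromal surface markers 13 had a mean of at least 1 CPM (the read count scaled to the library size with TMM factors), among them Pdgfrb (290.4 CPM), Cd44 (399.2) and Ly6a (74.0). Of 20 blood and immune genes 7 had 0 counts, including the macrophage gene Adgre1 and the lysozyme gene Lyz2, and the pan-leukocyte gene Ptprc stood at 0.074 CPM. Cd14 (44.8), Gata3 (13.8), Gata2 (180.6), Csf1r (5.99) and Cd68 (5.397) were the list's members at or above 1 CPM. Of 12 endothelial genes 5 had at least 1 CPM, among them Flt1 (7.02) and Pecam1 (2.68), while Tie1, Sox18 and Emcn had 0 counts and Cdh5 stood at 0.41 CPM. Of 14 epithelial genes 5 had at least 1 CPM, among them Krt19 (45.3), Dsp (2.14) and Perp (1.90), while Krt5, Krt14, Esrp1 and Cldn4 had 0 counts and Epcam stood at 0.065 CPM. Counts on genes totalled between 3801758 and 5347365 per RNA library.

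RefSeq promoters (250 bases before to 50 after a start, build GRCm38.p6) were matched by symbol and position: 624 promoters of 543 genes had their start in a domain. Below are the 4 promoters to which the results return, 5′ to 3′ on the gene's strand, with every CG dinucleotide in capitals. Sall2 is a zinc finger transcription factor whose 2 listed starts lie on either side of a domain's edge, so the pair compares a start inside (chr14:52328621-52328920, minus strand, 1 CG) with one outside (chr14:52316274-52316573, minus strand, 10 CG).
Sall2 start inside the domain: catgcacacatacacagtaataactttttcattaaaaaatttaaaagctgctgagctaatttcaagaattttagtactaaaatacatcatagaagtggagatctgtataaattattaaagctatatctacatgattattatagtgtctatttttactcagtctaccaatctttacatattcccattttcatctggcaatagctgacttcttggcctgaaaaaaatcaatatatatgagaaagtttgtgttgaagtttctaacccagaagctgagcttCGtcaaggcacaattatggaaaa
Sall2 start outside the domain: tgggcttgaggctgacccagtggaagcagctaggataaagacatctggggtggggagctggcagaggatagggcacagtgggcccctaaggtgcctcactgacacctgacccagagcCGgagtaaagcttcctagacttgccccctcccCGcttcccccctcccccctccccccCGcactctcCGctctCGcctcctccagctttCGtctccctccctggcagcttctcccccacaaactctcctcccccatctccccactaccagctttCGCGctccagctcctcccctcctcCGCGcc
Klk6 (chr7:43824294-43824593, plus strand, 8 CG) encodes a secreted kallikrein-related serine protease and is shown because it changed under the compounds.
Klk6 start inside the domain: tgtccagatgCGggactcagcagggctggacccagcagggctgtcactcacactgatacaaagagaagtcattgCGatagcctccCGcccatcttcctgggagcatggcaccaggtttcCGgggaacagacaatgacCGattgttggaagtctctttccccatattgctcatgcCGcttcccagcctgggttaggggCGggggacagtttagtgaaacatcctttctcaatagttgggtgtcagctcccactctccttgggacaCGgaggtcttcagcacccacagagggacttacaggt
Irx4 (chr13:73260247-73260546, plus strand, 31 CG) encodes a homeobox factor of the heart ventricle and is shown as one of the few CG-rich promoters among these domains.
Irx4 start inside the domain: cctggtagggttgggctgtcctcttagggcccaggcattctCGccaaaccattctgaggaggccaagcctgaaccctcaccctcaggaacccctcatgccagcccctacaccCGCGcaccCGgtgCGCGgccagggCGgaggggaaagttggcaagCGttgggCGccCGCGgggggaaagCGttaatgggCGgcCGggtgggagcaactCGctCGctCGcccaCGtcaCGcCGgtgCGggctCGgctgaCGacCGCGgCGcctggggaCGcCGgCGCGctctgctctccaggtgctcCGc

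Promoters inside the domains were poor in CG. The median was 4 CG dinucleotides in 300 bases, against 14 over 3714 promoters in H3K27me3 regions that also had H3K4me3 islands of at least 6 libraries (regions with both marks, 2158 in all) and 7 over all 32851 promoters. At least 12 CG were present in 90 of the 624 (14.4%), in 56.4% of promoters in regions with both marks and in 39.6% of all promoters. The median GC content was 50.0%, 58.7% and 52.7% in the same order. The most similar class differed little: over 1181 promoters in H3K27me3 regions with H3K4me3 islands of 1 to 5 libraries (1877 regions), the median was 5 CG, 19.6% had at least 12 CG, and the median GC content was 51%. The letters TATAAA, searched on both strands, occurred in 105 of the 624 promoters (16.8%), in 14.1% of those in regions with H3K4me3 of 1 to 5 libraries, in 9.61% of those in regions with both marks and in 13.6% of all. The inside start of Sall2 holds this hexamer and the outside start does not. The promoter table has no entry for chromosome 18, which holds 49 of the domains. These are descriptions of counts, with no test, and a match of letters is not a site in use. The curves of CG counts by where the promoter lies show the same order.

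**Figure D1:**
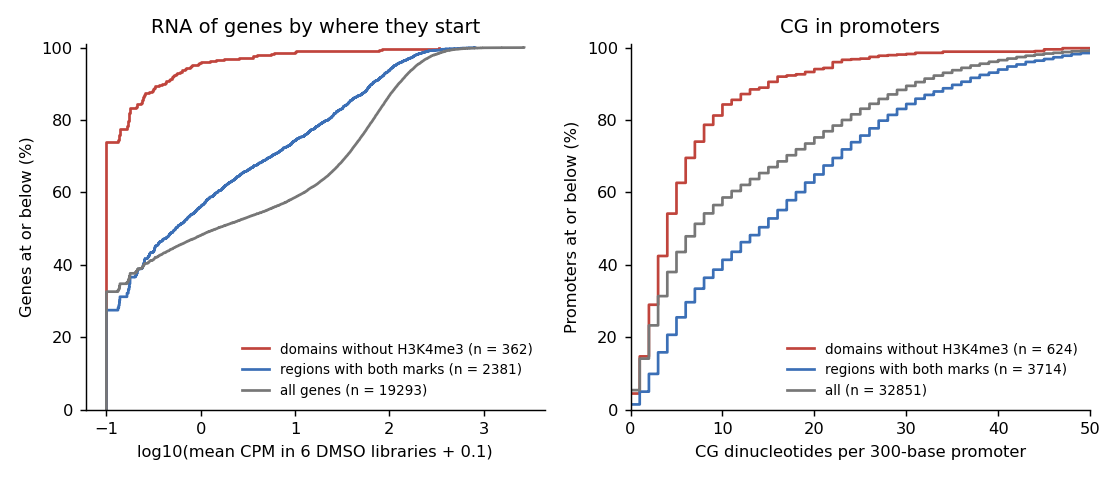
Left, cumulative share of genes (%) against log10 of the mean CPM in 6 DMSO libraries plus 0.1, for genes with a start in a domain without H3K4me3 (n = 362), in a region with both marks (n = 2381) and for all genes with a listed start (n = 19293). Right, cumulative share of 300-base promoters (%) against their CG count for the same 3 classes (n = 624, 3714 and 32851); the curve of the domains lies above the others through most of both plots, with 96.1% of genes below 1 CPM and a median of 4 CG.

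The CG-rich exceptions included the homeobox gene Irx4. Elovl2, an elongase of long polyunsaturated fatty acids, had the most, with 56 CG, in a domain with islands in all 8 libraries (chr13:41182600-41224999). Irx4 lay in a domain with islands in 7 libraries (chr13:73257600-73274199) whose fold of ChIP over input, as the authors' caller gives it, was 1.77, 2.05 and 2.01 in the DMSO libraries 1, 3 and 4 and 1.99, 1.85, 1.84 and 1.93 in the TBT libraries 1 to 4. DMSO library 2 had no island there, and the nearest H3K4me3 island of any library was 52.0 kb away. Both genes are printed here because their promoters rank among the highest in CG, which was seen before they were named.

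The domains held a gene start less often than regions with both marks and more often than merged H3K27me3 regions as a whole. A listed start lay in 433 of the 1951 domains (22.2%), against 1662 of the 2158 regions with both marks (77.0%), 731 of the 1877 with H3K4me3 of 1 to 5 libraries (38.9%) and 7421 of all 67899 merged regions (10.9%). Lengths differ between these classes, with a median of 16.6 kb for the domains, 25.6 kb with both marks and 4.2 kb for all merged regions. Another 484 domains (24.8%) held no listed start and lay wholly within a protein-coding gene. A further 595 (30.5%) touched no annotated gene. The shares for regions with both marks were 2.13% and 2.09%. The nearest H3K4me3 island was 14.6 kb away at the median, and 113 domains (5.79%) had one within 1 kb. Which domains avoid H3K4me3 was set by the rule. The rule did not use gene content, but H3K4me3 sits at promoters, so fewer starts than in regions with both marks partly follow from the choice.

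Gene families differed in how many members started in a domain, described here as counts with no test. Of 36 keratin genes with a listed start, 9 started in a domain, namely Krt25, Krt27, Krt28, Krt34, Krt75, Krt82, Krt84, Krt9 and Krt90, which encode filament proteins of hair and skin. These 9 genes lay in only 5 domains. Another 9 started in regions with both marks. Over all 27025 genes 2.01% started in a domain and 11.3% in a region with both marks. Of 940 olfactory receptor genes 21 (2.23%) started in a domain, of 321 vomeronasal receptor genes 1 (0.312%), and of 294 solute carriers 14 (4.76%). Of 69 potassium channel genes 6 (8.70%) did so, namely Kcna10, Kcnj1, Kcnj3, Kcnk16, Kcnmb2 and Kcns1, while 27 started in regions with both marks. Several domains, each with islands in all 8 libraries, covered neighbours of a cluster: Klk1, Klk1b3, Klk1b4, Klk1b5 and Klk1b24, glandular kallikreins, in chr7:44166400-44233799; Bpifa1, Bpifa3 and Bpifa5, secreted airway proteins, in chr2:154128800-154179399; and the hair keratin neighbours Krt75, Krt82, Krt84 and Krt90 in chr15:101522800-101601599. Genes of 1 domain share that domain and are not separate observations.

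Lists of mesenchymal lineage genes had no start in a domain, which at 2.01% of all genes is near the background for lists this short. None of 13 adipocyte markers, 16 adipogenic regulators, 9 osteoblast genes or 12 chondrocyte genes with a listed start began in a domain, whereas 8, 6, 2 and 5 of them began in regions with both marks. Counts in developmental families were 0 or 1: 0 of 22 Hox genes (13 in regions with both marks), 0 of 15 Wnt genes (14), 0 of 9 Tbx genes (5), and 1 of 11 Nkx genes (9), the last being Nkx2-9. Likewise 1 of 8 genes of the Irx and sine oculis-related homeobox families (Irx4) and 1 of 28 Fox genes (Foxi2) started in a domain. Among germline and pluripotency genes, Lin28a, an RNA-binding protein of early embryos, started in a domain, 1 of 10. Its domain (chr4:134014800-134020399) had one of the highest mean folds, 2.65, with 1.96, 1.80, 2.38 and 3.01 in DMSO libraries 1 to 4 and 2.31, 2.92, 3.81 and 2.98 in TBT libraries 1 to 4. The values of the 2 treatments overlapped. Lin28a had 0 counts in all 24 RNA libraries, which over the 6 DMSO libraries allows up to 0.110 CPM (3 counts, counting error only).

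Genes that started in a domain gave almost no RNA. Of the 543 genes, 362 were in the count table; 199 (55.0%) had 0 counts in all 24 libraries, and 348 (96.1%) had a mean below 1 CPM in DMSO. Genes that start in H3K27me3 regions with H3K4me3 of 1 to 5 libraries were close to this, with 94.1% of 660 below 1 CPM and 49.2% at 0 counts in all 24 libraries. The corresponding shares below 1 CPM were 57.2% of 2381 genes that start in regions with both marks and 48.7% of 19293 genes with a listed start. In single DMSO libraries the share for the domains ran from 95.0% to 96.1%, with a median of 95.6%, and in the TBT libraries from 94.2% to 96.1%. AGN194204 libraries lay between 95.0% and 96.7% and ROSI libraries between 95.3% and 96.4%, so the 4 groups overlapped. Together the 362 genes took 0.054% to 0.059% of gene counts in DMSO and 0.057% to 0.062% in TBT. All 20 olfactory receptors measured and all 9 keratins were below 1 CPM. In these bulk samples fewer expressing cells and less RNA per cell cannot be told apart.

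Another start was listed for 7 of the genes above that level. Of the 14 genes with at least 1 CPM in DMSO, 7 had every listed start in domains and 7 had one outside, and for 6 of the latter such a start lay in H3K4me3 islands of at least 6 libraries. Frmd4a, a scaffold protein of cell polarity, stood at 336.7 ± 17.1 CPM (SD, n = 6); its start at chr2:4017433-4017732 lay in a domain, while 2 others, at chr2:4400726-4401025 and chr2:4559504-4559803, were covered by H3K4me3 in all 8 libraries and by H3K27me3 in none. Atp2c1, a Golgi calcium pump, stood at 83.0 ± 3.83 CPM, with a start in a domain at chr9:105521208-105521507 and one under H3K4me3 in all 8 libraries at chr9:105495084-105495383. Rgs3, a brake on G-protein signalling, stood at 10.2 ± 1.77 CPM and was the exception, with 0 libraries of H3K4me3 at its outside start. Sall2 stood at 77.6 ± 9.80 CPM, and its outside start printed above was under H3K4me3 in 8 libraries and H3K27me3 in 0, its inside start under H3K27me3 in 7 and H3K4me3 in 0. The table of counts is per gene, so which start the RNA came from was not measured. When only the 337 genes with every listed start in a domain were kept, 330 (97.9%) lay below 1 CPM and 0 reached 10 CPM.

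Of the 7 genes with all listed starts in domains and at least 1 CPM, the serine protease gene Prss36 stood at 9.79 ± 1.80 CPM (SD, n = 6). The nicotinic receptor subunit gene Chrnb2 stood at 5.95 ± 1.08 CPM, the muscle calcium release channel gene Ryr1 at 5.41 ± 1.41 and the sperm protein gene Zan at 3.89 ± 1.72. Ccdc73 stood at 3.49 ± 1.26 CPM, Klk6 at 2.47 ± 1.06 and Hpgds, a prostaglandin D synthase, at 1.33. CPM are not per gene length, so these levels are not compared between genes.

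Protein-coding genes that overlapped a domain, with no listed start in one, had RNA more often than genes that start in domains. Of 533 such hosts in the count table, 126 (23.6%) had at least 1 CPM in DMSO and 49 (9.19%) at least 10 CPM. Both shares were below those of all genes with a listed start. Of these, 9899 of 19293 had at least 1 CPM and 7967 (41.3%) at least 10 CPM. Where a domain lay wholly inside the host, 87 of 331 hosts (26.3%) had at least 1 CPM. Only 364 hosts had a listed start, so where the others start was not known. Among the hosts with a listed start, H3K4me3 of at least 6 libraries covered a start in 33 of 37 with at least 10 CPM (89.2%). The same held for 41 of 59 with 1 to 10 CPM (69.5%) and 96 of 268 below 1 CPM (35.8%). Hk1, a glycolytic enzyme (255.6 CPM), and Yy1, a DNA-binding factor (191.7 CPM), are named for their level after it was seen, and each had a start under H3K4me3 in 8 libraries.

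TBT, AGN194204 and ROSI were compared with DMSO for the RNA of these genes. All 3 comparisons share the 6 DMSO libraries, and edgeR's quasi-likelihood test was fitted over 12529 genes with Benjamini-Hochberg adjustment. Of the 362 genes only 11 passed the filter on low counts, and 1 was called under TBT, 1 under AGN194204 and 0 under ROSI, at an adjusted p of 0.05. The background shares of genes called were 28.9%, 24.1% and 1.04%. At an unadjusted p under 0.05 there were 3, 4 and 0. The filter itself kept only genes with RNA, so the others had too few counts for a test.

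Klk6 was the gene called, and it rose under both RXR ligands. Its lowest, median and highest CPM were 0.468, 2.62 and 3.39 in DMSO, 4.73, 5.96 and 9.54 in TBT, 6.60, 8.397 and 9.28 in AGN194204 and 1.48, 2.68 and 3.62 in ROSI. Every TBT and AGN194204 library lay above every DMSO library, and ROSI overlapped DMSO. The log2 fold change was 1.34 ± 0.25 under TBT (SE, adjusted p = 7.8e-05, edgeR), 1.69 ± 0.24 under AGN194204 (adjusted p = 1.3e-06) and 0.05 ± 0.30 under ROSI (adjusted p = 0.97). The gene rests on 68 counts over the DMSO libraries and 166 over the TBT libraries. Its domain, chr7:43821400-43835599, had islands in DMSO libraries 2 and 4 (folds 1.52 and 1.35) and in all 4 TBT libraries (1.31, 1.40, 1.32 and 1.699). Its printed start lay under an H3K27me3 island in 3 libraries and under H3K4me3 in 0. With no island in 2 DMSO libraries it was not in the test of H3K27me3, so a change of the mark there was not tested.

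Phactr1, a regulator of actin and protein phosphatase 1, stood at 0.66 ± 0.29 on the log2 scale under TBT (adjusted p = 0.085, edgeR). It had one DMSO library at 7.65 CPM and a DMSO median of 2.88, and without replicate 2 of every group, which includes that library, the edgeR value was 1.12 (adjusted p = 0.0047). Sall2 stood at 0.08 ± 0.07 (adjusted p = 0.45, edgeR) and Frmd4a at 0.03 ± 0.04 (adjusted p = 0.54). The plot of CPM by library shows Klk6 and Sall2 beside 4 host genes.

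**Figure D2:**
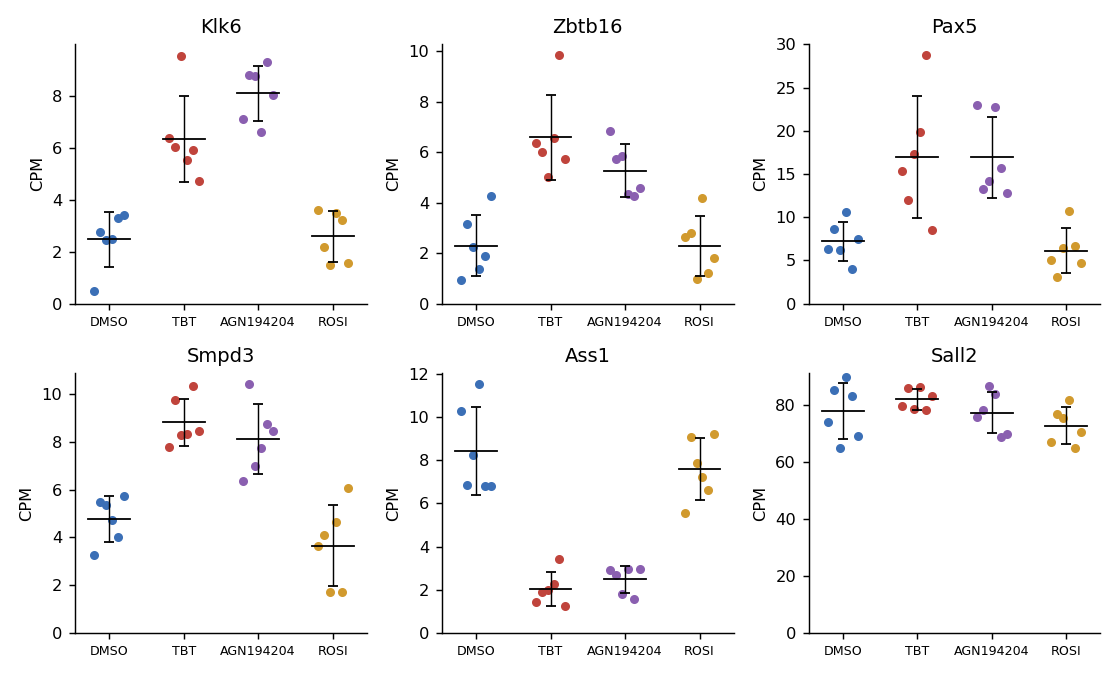
CPM per RNA library (points, 6 per treatment) with the mean (line) and SD (bars) for Klk6 and Sall2, which start in domains, and for Zbtb16, Pax5, Smpd3 and Ass1, which overlap one. All TBT points of Klk6, Zbtb16 and Smpd3 lie above the DMSO points and all of Ass1 below, while those of Sall2 overlap.

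Host genes changed about as often as all genes. Of 98 protein-coding hosts that passed the filter, 20 were higher and 12 lower under TBT (32.7%, background 28.9%), 19 higher and 9 lower under AGN194204 (28.6%, background 24.1%), and 0 under ROSI (background 1.04%, 11 at an unadjusted p under 0.05). The median log2 fold change of the 98 under TBT was 0.02, and that of all genes tested was -0.01. A share so near the background says nothing particular of the hosts.

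Among the hosts that rose under TBT were transcription factors. Zbtb16, a zinc finger factor of mesenchymal and lymphoid cells, had lowest, median and highest CPM of 0.936, 2.06 and 4.24 in DMSO and 5.02, 6.19 and 9.83 in TBT, and the groups did not overlap; its log2 change was 1.48 ± 0.27 (adjusted p = 5.7e-05, edgeR) under TBT and 1.16 under AGN194204. Pax5, known from B cells, rose by 1.21 ± 0.24 from a mean of 7.21 to 16.97 CPM (adjusted p = 1.2e-04, edgeR), with 5 of 6 TBT libraries above all DMSO libraries. Pax5 and its domain (chr4:44512000-44524799) overlap only at the gene's edge (gene chr4:44524748-44710694). The domains of Lmcd1, Ass1 and Tead2, named below, likewise overlap an end of the gene and run past it. Col28a1, a collagen chain, rose by 1.68 ± 0.44, and Ccdc180, listed in the table as E230008N13Rik, by 1.55 ± 0.33. Thsd4, a matrix protein that binds fibrillin, rose by 1.13 ± 0.30, Lmcd1, a LIM-domain factor, by 0.95 ± 0.11, and Mertk, a receptor for dying cells, by 0.77 ± 0.26 (adjusted p = 0.020, edgeR), a call lost without replicate 1, 5 or 6 (highest adjusted p = 0.092). All 8 largest rises, counting Smpd3 below, were also called under AGN194204, Mertk losing that call with ERCC scaling (adjusted p = 0.074, edgeR) and without replicate 1, 3 or 6 (highest adjusted p = 0.12), and none under ROSI. In the same libraries 5 of 7 adipocyte markers tested were higher under TBT, 4 under AGN194204 and 4 under ROSI, and their part in these changes was not tested.

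The falls were led by Ass1, an enzyme of arginine synthesis, whose lowest, median and highest CPM were 6.79, 7.55 and 11.5 in DMSO and 1.24, 1.94 and 3.44 in TBT. Every TBT library lay below every DMSO library, and the fit fell by 2.04 ± 0.23 under TBT (adjusted p = 5.7e-09, edgeR) and by 1.74 under AGN194204. Kirrel3, an adhesion molecule of synapses, fell by 0.74 ± 0.20. The cytoskeletal regulator Cyfip2 (fell by 1.32 ± 0.45), Col23a1 (0.58 on the same scale, a membrane collagen), Ubash3b (0.69), the receptor phosphatase Ptpre (0.48), Cdk5rap1 (0.40) and the Hippo pathway factor Tead2 (fell by 0.21 ± 0.05) were called under TBT but lost the call with ERCC scaling, which moved the median of all genes from -0.01 to 0.08. With that scaling the log2 differences were -1.23 for Cyfip2, -0.59 for Ubash3b, -0.49 for Col23a1, -0.39 for Ptpre, -0.30 for Cdk5rap1 and -0.13 for Tead2. Of these, Cyfip2, Col23a1, Ubash3b and Cdk5rap1 also lost it without 1 or more of the replicates. Under AGN194204 Slit3, a secreted guidance cue, fell by 0.35 (adjusted p = 0.032, edgeR), a call that ended with ERCC scaling, without the filter and without replicate 3, 4 or 6.

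Genes of the writers, readers and erasers of the mark changed by small amounts, and none of the 11 PRC2, 14 PRC1 and 1 demethylase genes with a listed start began in a domain. Of 11 PRC2 genes 3 were higher and 6 lower under TBT, of 19 PRC1 genes 3 higher and 2 lower, and of the demethylases Kdm6a and Kdm6b 1 higher (background 28.9% of genes in either direction). Under AGN194204 the counts were 2 higher and 4 lower for PRC2, 2 and 2 for PRC1, and 1 higher for the demethylases (background 24.1%). Ezh2 went from 151.1 ± 5.77 to 122.8 ± 6.54 CPM, below all DMSO libraries in 6 of 6 TBT libraries, and Kdm6b from 118.7 ± 11.9 to 161.3 ± 12.9 CPM, above in 6 of 6. Ezh1 rose by 0.36 ± 0.09, while Phf19, a PRC2 cofactor, fell by 0.42 ± 0.09 (edgeR, adjusted p under 0.05 for each). Ezh2 did not pass with ERCC scaling (fell by 0.21, adjusted p = 0.051, edgeR). Eed and Suz12, both PRC2 core subunits, and Cbx2 of PRC1 were also lower under TBT and lost the call with that scaling. The calls under ROSI numbered 0 in all 3 lists.

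The islands in the domains differed between libraries. Of the 1951 domains an island was present in 1550, 1287, 1747 and 1855 in DMSO libraries 1 to 4 and in 1752, 1514, 1801 and 1854 in TBT libraries 1 to 4. The median fold was 1.33, 1.41, 1.42 and 1.48 in DMSO and 1.39, 1.41, 1.45 and 1.499 in TBT, so the groups overlapped. The caller's scaling of input to ChIP reads gives a relative depth of 1 for DMSO library 1 and 0.958 for TBT library 1, and of 0.640 to 0.741 for the other 6. Domains had a median of 42.5 input reads per kb. The rule's threshold of 6 libraries cut a continuous series: domains with islands in exactly 6 numbered 818 with a median length of 13.4 kb, and H3K4me3-free regions with islands in exactly 5 numbered 1148 with a median of 10.8 kb, at a median fold of 1.45 in both.

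**Figure D3:**
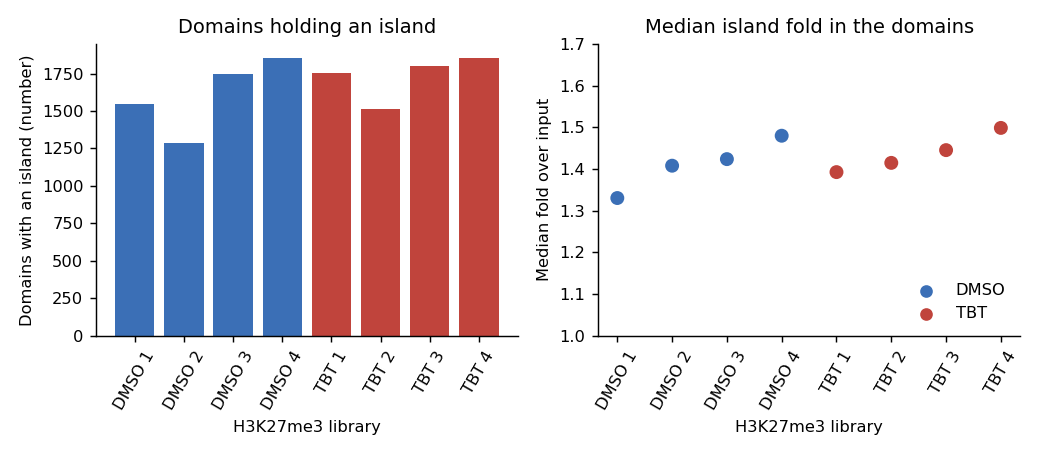
Left, number of the 1951 domains with an H3K27me3 island in each library (bars from 0); right, median fold of ChIP over scaled input of the islands in the domains (points, axis from 1.0). DMSO library 2 had the fewest (1287) and DMSO library 1 the lowest fold (1.33), and both treatments span overlapping ranges.

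The input stood out in 7 domains, where it was over 3 times the median. Input reached 1751 reads per kb in chr1:24611400-24617999, and 6 of the 7 had islands in every library except DMSO 1 and TBT 1. The 3 longest domains of all were among them, chr8:20493200-20697999, chr8:20308800-20443199 and chr8:20046000-20157599, at 204.8, 134.4 and 111.6 kb and mean folds of 1.06, 1.06 and 1.04. Without the 7, 1944 domains remained and the share of genes below 1 CPM was 96.1%. The longest of the rest was chr2:105252200-105360799 (108.6 kb) in the body of Them7, with folds of 1.12, 1.22, 1.26 and 1.27 in DMSO and 1.23, 1.24, 1.25 and 1.34 in TBT. Next came chr8:78239400-78342599 in Ttc29, a gene of sperm flagella (103.2 kb), and chr9:64571800-64669399 in Megf11, a cell surface protein of the retina (97.6 kb). The remaining 4 of the 10 longest were the keratin domain above (78.8 kb), chr17:33421600-33505199 at Actl9, an actin-like sperm protein (83.6 kb), chr5:30726000-30805599 at Dpysl5, a protein of growing axons (79.6 kb), and chr11:32066400-32144199 (77.8 kb).

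Domains were spread unevenly over the chromosomes. Chromosome 11 held the most, 200 or 1.64 per Mb, and chromosomes 16 and 1 the fewest, 9 (0.092 per Mb) and 34 (0.174 per Mb). On these chromosomes the median input in domains was also lowest, 34.5 and 35.1 reads per kb against 39.0 to 48.9 on the other 17, and the median fold was highest, 2.28 and 1.86 against 1.35 to 1.57. Over all H3K27me3 islands input was not lowest there, 50.3 and 48.7 reads per kb against 43.2 to 78.3. The scarcity was not particular to the domains. H3K27me3 islands as a whole stood at 1.32 and 2.48 per Mb against 5.24 to 18.3. Regions with both marks stood at 0.163 and 0.338 per Mb against 0.497 to 1.55. Merged H3K4me3 regions were likewise sparse there, 7.11 and 7.74 per Mb against 10.6 to 26.5. Protein-coding genes were not, at 6.92 and 6.17 per Mb against 5.64 to 13.97. Fold is a ratio with input in its denominator, so the points share that quantity, and the part of input in these counts was not tested.

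**Figure D4:**
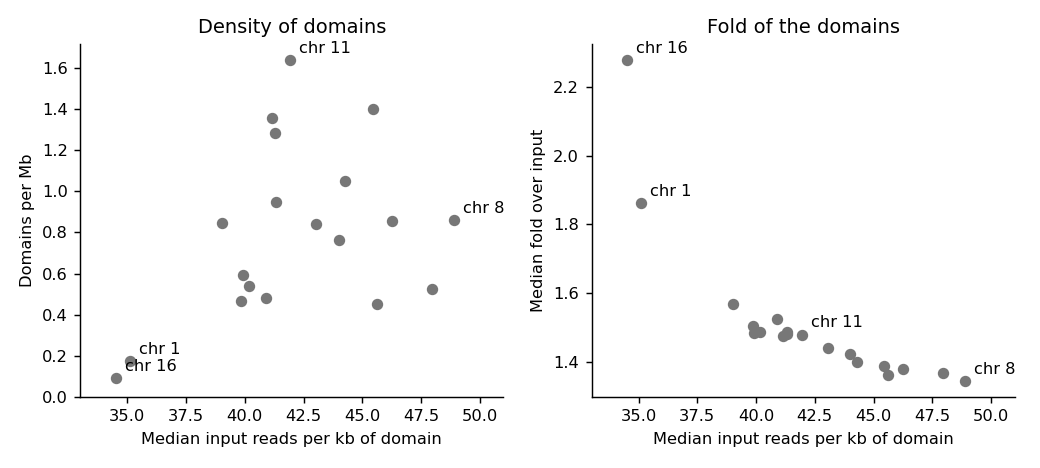
Domains per Mb (left) and median fold of the domains (right) against the median input reads per kb of the domains, 1 point per autosome (19). Chromosomes 1 and 16 lie at the lowest input, the lowest density and the highest fold.

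TBT was compared with DMSO for the mark itself in regions with islands in all 8 libraries. This covered 2859 regions, 521 of them domains, and the other 1430 domains were not tested. edgeR's quasi-likelihood test called 0 domains and 0 regions (background 0%), with 33 of 521 domains and 186 of 2859 regions at an unadjusted p under 0.05. DESeq2 called 26 regions, 17 higher and 9 lower, of which 1 and 4 were domains. Replicates spread widely, with a biological coefficient of variation of 34.4%. On simulated counts for these 2859 regions the test recovered 2% of 1.5-fold and 16% of 2-fold changes, so a change of that size was mostly not detectable at this depth and spread.

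The differences that came nearest followed how much of a domain the caller covered. A domain in the body of Smpd3, which makes ceramide from sphingomyelin (chr8:106303200-106330599), had 532, 419, 759 and 1174 reads in islands in DMSO libraries 1 to 4 and 473, 187, 287 and 385 in TBT libraries 1 to 4. After scaling, the log2 difference was -1.35 ± 0.33 (unadjusted p = 0.0025, adjusted p = 0.47 with edgeR, 0.014 with DESeq2), and all 4 TBT libraries lay below all 4 DMSO libraries. Islands covered a mean of 14 kb of it in DMSO and 6.05 kb in TBT. Reads per covered kb were 63.3, 47.6, 59.3 and 45.2 in DMSO and 65.7, 51.9, 49.5 and 50.7 in TBT. Their fitted difference was -0.00 ± 0.08. Such reads are counted only inside islands, which had to pass the caller's threshold. A difference near 0 therefore cannot show that the mark was unchanged. The RNA of Smpd3 had lowest, median and highest CPM of 3.27, 5.05 and 5.73 in DMSO and 7.79, 8.39 and 10.3 in TBT, a rise of 0.88 ± 0.20 (adjusted p = 8.9e-04, edgeR). No link between the 2 measurements was tested.

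The other 4 domains with the smallest p for lower reads were chr6:35793200-35826799, chr6:98360800-98393999, chr15:98324200-98355599 beside the olfactory receptor gene Olfr284, and chr11:103609800-103622999 at Gm884. Their log2 differences were -1.24, -1.18, -0.79 and -0.77, with adjusted p of 0.45 to 0.61 (edgeR). With DESeq2 the adjusted p was 0.0012 for chr6:35793200-35826799, 0.019 for chr6:98360800-98393999 and 0.049 for chr15:98324200-98355599. The domain at Gm884 was not called by DESeq2. The 5 for higher reads were chr11:3480400-3510399 at Inpp5j and Pla2g3 (1.52 ± 0.42, adjusted p = 0.59 with edgeR, 0.049 with DESeq2), chr2:129409600-129436999 (1.28), chr6:40609200-40637799 at the gut enzyme gene Mgam and the taste receptor gene Tas2r138 (0.87), chr2:73983000-73998799 (0.77) and chr11:94729600-94783799 at Gm11545 (0.74). The differences in reads per covered kb of all 10 lay between -0.10 and 0.03. Over the 521 domains the central 80% of differences ran from -0.49 to 0.58 in island reads and from -0.10 to 0.10 in reads per covered kb, where 21 had an unadjusted p under 0.05 and 0 were called.

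**Figure D5:**
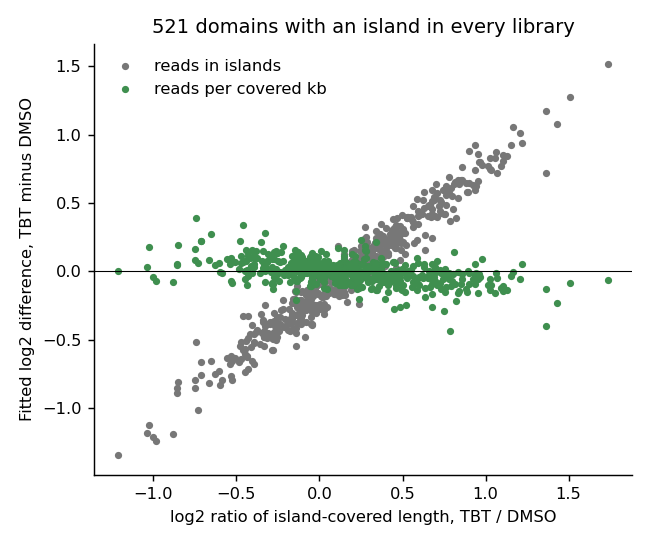
Fitted log2 difference between TBT and DMSO against the log2 ratio of the length that islands covered, for the 521 domains with an island in every library: island reads (grey) and reads per covered kb (green). Island reads follow the covered length, which is part of that sum, while reads per covered kb stay near 0, with a central 80% of -0.10 to 0.10. Both count reads inside islands only.

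In the authors' deposited table of differential H3K27me3 peaks, 78 of 4329 peaks overlapped 76 domains by at least 1 base. Those were 3.90% of the 1951 domains, against 3.20% of regions with H3K4me3 of 1 to 5 libraries and 2.78% with both marks. Of the 78, the authors' deposited table has 43 higher in DMSO and 35 higher in TBT. That is close to the split of all 4329 peaks, 2274 and 2055. For peaks in regions with both marks the split was 10 and 50, and with H3K4me3 of 1 to 5 libraries 33 and 28. The authors' deposited table gives chr6:98360800-98393999 as higher in DMSO by 1.94 on the log2 scale (FDR = 3.1e-06), the direction of the test above. It also gives chr15:98324200-98355599 as higher in DMSO, by 1.02 (FDR = 0.0147). The other domains named from that test, the Smpd3 domain and those with higher reads among them, have no peak in it. A domain in Dock9, a regulator of cell shape, holds 2 peaks of the authors' deposited table. The first, chr14:121653800-121665999, was higher in DMSO by 6.39, and 4 DMSO libraries and 1 TBT library had an island there. Its TBT value was -0.22 on the log2 scale, so the difference rests on a very low value. Among the 78 peaks, 5 had such a low value in a treatment, and in 3 of them that treatment had an island. The other Dock9 peak, chr14:121666000-121673599, was higher in TBT by 3.1.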

How the data were processed

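RNA-seq was measured in 24 libraries and H3K27me3 and H3K4me3 ChIP-seq in 8 each, with 1 input per treatment. The authors deposited raw counts of reads per gene (GRCm38 and mm10 and the tools STAR, SICER and DiffBind are named in the submitters' processing notes, with no versions). For each ChIP library the authors deposited islands with ChIP and input read counts, a fold ratio over scaled input, a p-value and an FDR, called per library with a window of 200, a gap of 600 and an FDR of 0.001 as the deposited files are named. The authors' deposited table of differential peaks gives log2 concentrations and differences with a p-value and FDR.

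Islands were merged, and reads in islands were summed per library over regions with an island in all 8. Island reads miss what lies outside islands and move with covered length, so reads per covered kb were also fitted. The latter are counted only where islands passed the caller's threshold, so they cannot show that the mark was unchanged. Regions and genes were tested with edgeR 4.0.16 (TMM, quasi-likelihood, Benjamini-Hochberg) in R 4.3.3, over all 12529 genes passing filterByExpr or 2859 regions with a mean of at least 20 reads, and DESeq2 1.42.0 was an alternative. All groups shared 1 RNA fit. Reads given to no gene (22.9% to 26.2%) were left out. Samples were not paired by replicate number in the main fits. Scripts were tested on simulated data: for RNA 93% of 1.5-fold and 100% of 2-fold changes were recovered among 12529 genes.

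Members and lists were chosen with earlier results of these data known. Named regions were the 10 longest and the 5 smallest p in each direction; named genes were the 10 highest in DMSO that start in a domain, the 8 largest called rises and falls under TBT, the 4 largest under AGN194204 and ROSI, and called Polycomb genes. Others named for CG content, cluster or level were chosen after their values were seen. The alternatives that leave out a library from the choice of domains, or regions of high input, were added after seeing the data.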

Additional observations from a re-analysis of the deposited data

Results flagged for a closer look

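In 9 of 142 groups of 4 to 6 samples the highest or lowest sample lay apart from the rest by more than Dixon's 95% limit, and chance gives about 1 in 20. For Klk6 these were DMSO library 1 at 0.468 CPM and TBT library 3 at 9.54 CPM. Without replicate 1 the rise of Klk6 under TBT was 1.13 on the log2 scale and without replicate 3 it was 1.19, with adjusted p of 6.7e-04 and 0.0015 (edgeR). Phactr1 stood at 7.65 CPM in DMSO library 2, Ccdc180 at 7.72 CPM in ROSI library 1, and Mertk at 3.28 CPM in AGN194204 library 2. Col23a1 stood at 3.76 CPM in TBT library 3, and without replicate 3 its call under TBT was lost. Zbtb16 stood at 9.83 CPM in TBT library 5. H3K27me3 reads per covered kb in TBT library 1 stood apart from the other TBT libraries in chr2:129409600-129436999 (64.1) and in the Smpd3 domain (65.7). The relative depth of that library was 0.958, against 0.681 to 0.711 for the other 3.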

How the results depend on the processing

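The number of domains followed the rule: 3040 where only H3K4me3 islands of at least 2 libraries removed a region, 521 with islands in all 8 libraries, 968 at an FDR of at most 1e-6, and 752 in 6 of 6 libraries without both libraries numbered 1. Leaving out each library in turn gave 1254 (without TBT replicate 4, and 1270 without DMSO replicate 4) to 1580 (without DMSO replicate 2). These runs asked for islands in at least 6 of 7 libraries, which is stricter than 6 of 8, so lower numbers do not measure dependence on a library alone. The share of genes below 1 CPM was 93.1% at 0.5 CPM, 74.0% at 0 counts, 97.9% with all starts in domains and 95.5% for domains in all 8 libraries. For H3K27me3 DESeq2 called 17 regions higher and 9 lower (1 and 4 domains), against 0 with edgeR in every other setting run; the cause was not tested. Counting every gene that overlaps a domain gave 22 higher and 12 lower under TBT and 21 and 9 under AGN194204, because more genes are counted. Without a filter TBT gave 2 higher and 2 lower. Leaving out each replicate gave 1 to 2 higher under TBT, 1 to 2 higher under AGN194204 and 0 to 1 lower: Phactr1 joined without replicate 2, Atp2c1 and Zan without replicate 3. Same-number correlations were -0.03 to 0.10 in RNA, -0.04 to 0.06 in H3K27me3 island reads and -0.01 to 0.15 in reads per covered kb. In the last, 3 of 4 pairs were positive, each the highest for its DMSO library. The replicate block gave 1 lower gene under AGN194204 (Zan), 1 higher under TBT and 0 regions. Over all genes the block moved calls from 1878 higher and 1745 lower to 1999 and 1883 under TBT. Under AGN194204 they went from 1600 and 1414 to 1710 and 1554, and under ROSI from 77 and 53 to 113 and 110. Whether the replicate numbers pair the samples was not settled. Klk6 was called under TBT and AGN194204 in every setting run. At this spread the region test detects few changes of 2-fold.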
